A study of Mus musculus with 6 samples.

Results

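The genes described here are 30 markers of macrophages and other leukocytes, read in whole testes of Gipr knockout and wild-type mice. They were taken by gene name from the probes of the arrays. The names of 29 of the 30 were found among the 34844 gene names on the array, Emr1 being the older symbol of Adgre1. Spi1 was present only under its older symbol Sfpi1. The 29 genes have 42 probes, of which 38 in 27 genes were bright enough to test, and Cd163 and Ccr2 were found but not tested.

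The knockout group was made of testes from 3 Gipr-/- mice and the wild-type group of testes from 3 Gipr+/+ mice. All 6 mice were 8 weeks old and of strain C57BL/6, and each testis RNA was hybridised to 1 array. Gipr encodes the receptor for the gut hormone glucose-dependent insulinotropic polypeptide. The labels name no promoter or cell type that limits the deletion, and the exons it removes are not named in the sources used here.

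The testis holds macrophages in the interstitium, beside the steroid-producing Leydig cells, and on the surface of the seminiferous tubules. In the mouse the interstitial cells are known for high CSF1 receptor and the mannose receptor, and the peritubular cells for MHC class II. Both depend on CSF1 signalling, clear debris through scavenger receptors and lysosomes, and express F4/80, the product of Emr1. A whole testis is mostly germ cells, so in these RNA samples fewer leukocytes and less RNA per leukocyte cannot be told apart.

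Values are array signals scaled so that the 75th percentile of every array equals 753.849 units. They compare 1 probe between arrays and not 1 gene with another. Between 70.6% and 76.0% of non-control spots were well above background on an array, and none were saturated. All arrays lay on 1 slide, with the knockout samples in one row and the wild-type samples in the other, so row and genotype cannot be told apart. Gipr itself read 148, 152 and 173 units in the knockout testes, against 797, 834 and 1020 units in the wild-type testes. The groups did not overlap, and the difference was -2.48 ± 0.11 log2 units (SE, adjusted p = 0.00196, limma). Whether its probe lies in the deleted stretch was not tested. The macrophage markers Csf1r, Emr1, Cd68 and Mrc1 were well above background on all 6 arrays.

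No macrophage or leukocyte gene passed the test between the genotypes after correction. By limma with Benjamini-Hochberg adjustment over 26977 genes, 0 of the 27 tested members passed an adjusted p of 0.05, while 19 genes (0.0704%) passed over the whole array, 0.063% lower and 0.00741% higher in knockout. At an unadjusted p under 0.05, 1 member was called, Lyz1, against 7.47% of all genes (3.73% lower and 3.74% higher in knockout). The same gene was the 1 member whose knockout values all lay below the wild-type values, a separation seen in 5.98% of all genes, and 0 members lay wholly above, against 7.08%. In 20 of the 27 members the knockout mean was lower, compared with 49.4% of all genes. The median difference over the 27 members was -0.16 log2 units, and over all genes it was 0.00.

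**Figure D1:**
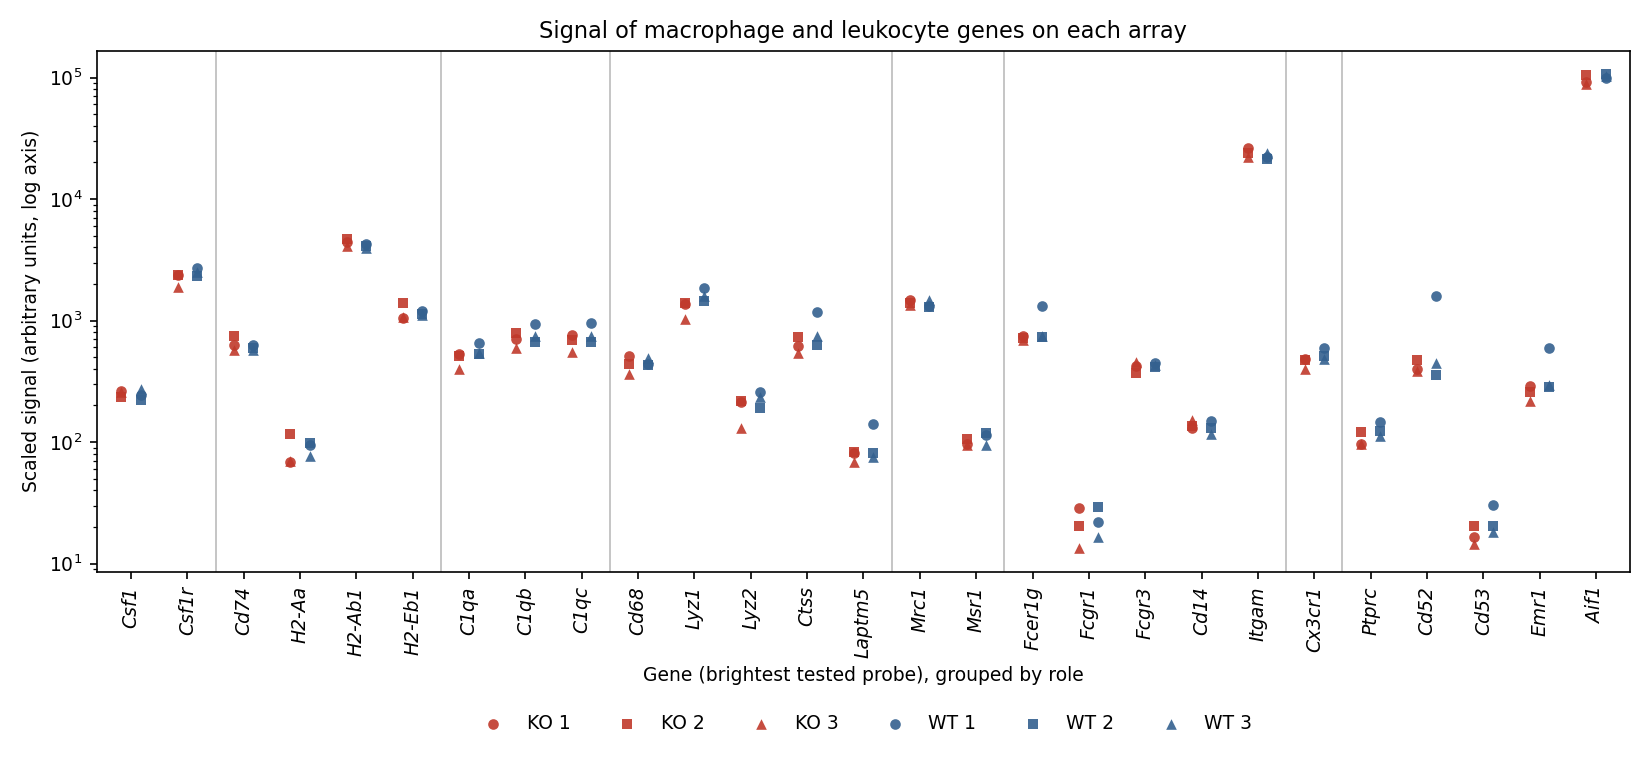
Scaled signal of the 27 tested genes on each array, on a log axis, with knockout arrays (KO, red) left of wild-type arrays (WT, blue) and a marker shape for each replicate. Grey lines separate the roles. For Cd52, Emr1, Fcer1g, Laptm5 and Ctss the WT 1 point stands at least 1.5-fold above the other 5, while most other genes have overlapping groups.

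For many of these genes the highest and lowest values came from the same pair of arrays. Wild-type replicate 1 was the highest of the 6 arrays for 14 of the 27 members, whereas it was the highest for 15.1% of all genes. Knockout replicate 3 was the lowest for 17 members, against 26.8% of all genes. Both held at once in 13 members and in 5.42% of all genes. Relative to the mean of each gene, the members' median on the 3 knockout arrays was -0.05, 0.01 and -0.29 log2 units, against 0.20, -0.05 and -0.02 on the wild-type arrays. Without both of these arrays, a choice made after seeing the data, the median difference of the members was 0.02 and 11 of 27 were lower. Since the arrays were picked as the lowest knockout and the highest wild-type one, a shift towards 0 follows from that choice, here and in each group below, and the values describe how much of a difference those arrays carry. Leaving out knockout replicate 3 alone gave a median of -0.08, as did leaving out wild-type replicate 1 alone. Leaving out any of the other 4 arrays singly moved the median away from 0, to between -0.25 and -0.22.

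**Figure D2:**
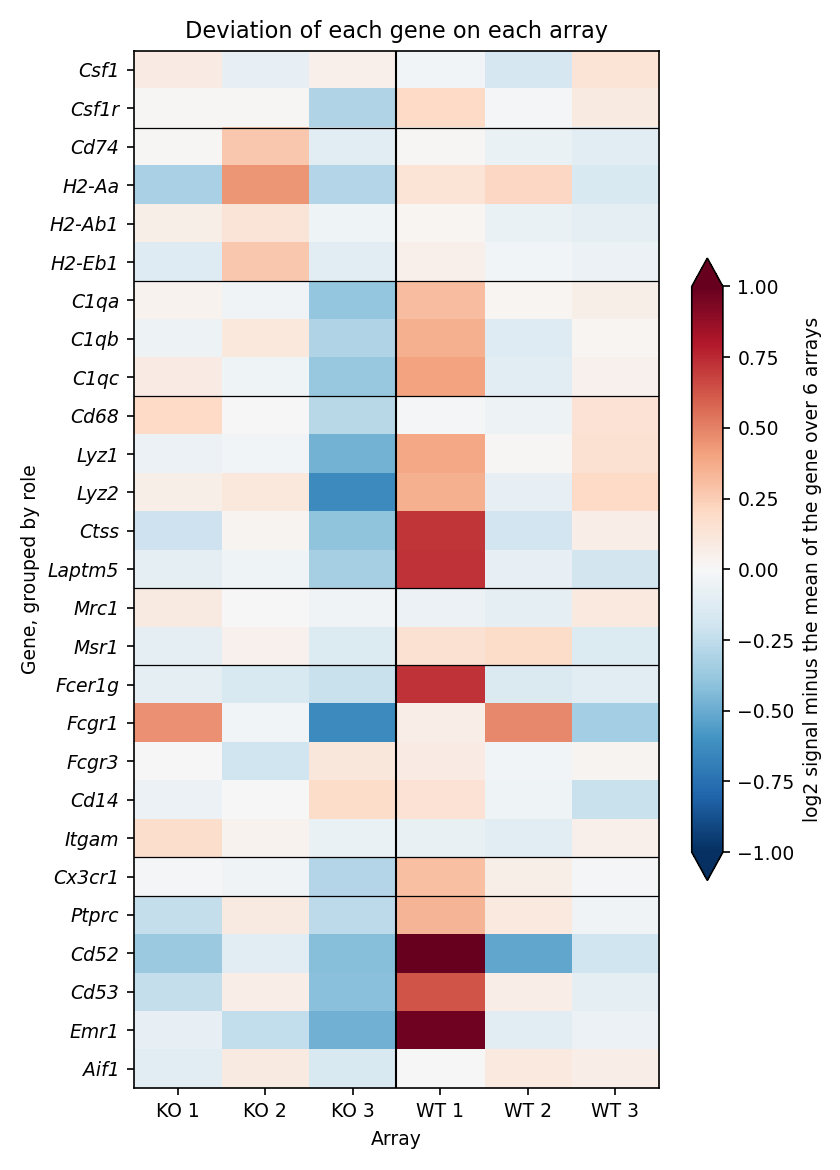
Deviation of each gene on each array from its mean over the 6 arrays, in log2 units, with the knockout arrays (KO) left of the black line and the wild-type arrays (WT) right of it. Red marks a higher and blue a lower signal, and colours end at 1 log2 unit in either direction. The WT 1 column is red for most complement, lysosomal and surface genes and the KO 3 column is blue for most of them, while the 4 MHC class II genes are reddest in KO 2.

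The CSF1 axis sets the survival and number of macrophages. Csf1r, the receptor, read 2376, 2376 and 1905 units in the knockout testes and 2697, 2336 and 2497 units in the wild-type testes. Its lowest value was in knockout replicate 3 and its highest in wild-type replicate 1, and the groups overlapped. The difference was -0.18 ± 0.11 log2 units (SE, adjusted p = 0.693, limma). The remaining Csf1r probes differed by 0.07 and -0.07 log2 units, so the probes do not share a sign.

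Csf1, the ligand, read 265, 236 and 259 units in the knockout testes and 245, 222 and 274 units in the wild-type testes. The groups overlapped fully and the difference was 0.04 ± 0.09 log2 units, with a 95% interval of -0.19 to 0.27 (SE, limma). Its remaining tested probes gave -0.20 and -0.13. Spi1 encodes PU.1, the lineage factor of myeloid cells. Its probe under the name Sfpi1 was not well above background on any array, with 2.26, 5.70 and 2.26 units in knockout and 10.67, 7.13 and 4.66 units in wild type, so no difference is given.

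The MHC class II genes did not share that order of arrays. H2-Aa, H2-Ab1 and H2-Eb1 encode the chains that present peptide to CD4+ T cells, and Cd74 encodes the invariant chain that guards their groove. H2-Ab1 read 4438, 4653 and 4129.8 units in the knockout testes and 4304, 4069 and 3971 units in the wild-type testes. Cd74 read 629.8, 752 and 577 units in the knockout testes and 630.2, 594 and 575 units in the wild-type testes. In these genes knockout replicate 2 gave the highest value, and wild-type replicate 1 did not stand out.

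H2-Eb1 read 1057, 1395 and 1075 units in knockout and 1196, 1133 and 1110.1 units in wild type. H2-Aa read 68.5, 117 and 70.0 units in knockout and 94.2, 99.0 and 77.2 units in wild type. All 4 genes peaked in knockout replicate 2, and in all 4 the groups overlapped. The differences were 0.10 ± 0.07 for H2-Ab1, 0.11 ± 0.11 for Cd74, 0.02 ± 0.12 for H2-Eb1 and -0.12 ± 0.22 log2 units for H2-Aa (SE), and the lowest adjusted p among them was 0.715 (limma). The median was 0.06 with 3 of 4 higher in knockout. Without knockout replicate 2 the median was -0.05, with H2-Aa at -0.37 ± 0.12 (SE). Since that array was the highest for all 4 genes, a lower median follows from leaving it out. The values describe how much of the difference it carries.

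Class II promoters carry a shared module of boxes that bind a common set of factors, one of which is the Y box, an inverted CCAAT element. The motif CTGATTGG, searched on both strands of the window from 250 bases upstream to 50 bases downstream of the start site, was found in the promoters of 4.70% of 27025 mouse genes of RefSeq (build GRCm38.p6). Among the 21 members with a promoter in that table, H2-Aa and H2-Eb1 carried it, starting at positions -51 and -62 from the start site. Not every member had a promoter there, so a lack of the motif is not read for Cd74 or H2-Ab1. Their last 150 upstream bases are shown 5′ to 3′ on the gene's strand because these 2 class II members carry the motif, which is in capitals. H2-Aa lies at chr17:34287824-34287973 on the minus strand and H2-Eb1 at chr17:34305717-34305866 on the plus strand.
H2-Aa: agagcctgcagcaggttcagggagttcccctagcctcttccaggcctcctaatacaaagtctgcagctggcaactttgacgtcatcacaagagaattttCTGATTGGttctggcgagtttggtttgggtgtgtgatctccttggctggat
H2-Eb1: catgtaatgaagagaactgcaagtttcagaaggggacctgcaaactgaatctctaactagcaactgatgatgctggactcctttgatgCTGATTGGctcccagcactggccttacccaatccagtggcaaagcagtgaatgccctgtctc

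The complement C1q genes encode the 3 chains of the molecule that starts the classical pathway, made mainly by macrophages. C1qa read 534, 511 and 400.1 units in the knockout testes and 648, 529 and 544 units in the wild-type testes. C1qb read 711, 789 and 596 units in knockout and 939.7, 670.0 and 744 units in wild type. C1qc read 764, 698 and 553 units in knockout and 952, 668 and 744 units in wild type. All 3 chains had their lowest value in knockout replicate 3 and their highest in wild-type replicate 1, and the remaining 4 arrays of each gene interleaved.

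The C1q differences were -0.26 ± 0.14 for C1qa, -0.16 ± 0.16 for C1qb and -0.23 ± 0.17 log2 units for C1qc (SE). The lowest adjusted p among them was 0.680 (limma). Without both of those arrays the median of the 3 chains was 0.05, compared with -0.23 on all arrays. C1qa, C1qb and C1qc lie beside each other on mouse chromosome 4.

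In the lysosomal group all 5 members had a lower knockout mean, with a median of -0.32 log2 units. Lyz1 and Lyz2 encode lysozyme, which digests bacterial walls. Lyz1 read 1367, 1403 and 1028 units in the knockout testes and 1869, 1438 and 1587 units in the wild-type testes. Every knockout value lay below every wild-type value, the nearest being 1403 units in knockout and 1438 units in wild type. The difference was -0.37 ± 0.15 log2 units, 1.29-fold lower in knockout (SE, adjusted p = 0.662, limma), and it did not pass. Without knockout replicate 1, knockout replicate 3 or wild-type replicate 1, 0 members had an unadjusted p under 0.05 (limma). The shares of all genes in those fits were 4.81%, 5.61% and 5.67%, so few members would be called in any case. Without knockout 3 and wild-type 1 together the Lyz1 difference was -0.13.

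Lyz2, the copy typical of macrophages, read 212, 219 and 131 units in knockout and 260.4, 192 and 234 units in wild type. Its groups overlapped and the difference was -0.32 ± 0.22 log2 units (SE, adjusted p = 0.714, limma). The Lyz1 probe lies at chr10:116724862-116724921 and the Lyz2 probe at chr10:116719175-116719234 on build mm9. The copies are near-identical neighbours, so signal of one may include RNA of the other, and the share of each is uncertain. Their promoters are close relatives too: over the last 150 upstream bases 129 were identical and 21 differed (86.0% identity). Both are shown 5′ to 3′ on the gene's strand from RefSeq (GRCm38.p6), with the bases that differ in capitals. Lyz1 lies at chr10:117292869-117293018 and Lyz2 at chr10:117282273-117282422, both on the minus strand.
Lyz1: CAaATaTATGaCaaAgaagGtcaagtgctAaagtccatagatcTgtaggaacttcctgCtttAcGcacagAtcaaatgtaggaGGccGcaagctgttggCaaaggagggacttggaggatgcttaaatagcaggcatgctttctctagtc
Lyz2: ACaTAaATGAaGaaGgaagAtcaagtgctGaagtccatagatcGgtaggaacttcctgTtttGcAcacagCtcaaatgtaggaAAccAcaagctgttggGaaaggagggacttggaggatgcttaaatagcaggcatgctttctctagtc

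Ctss encodes cathepsin S, a protease that trims the invariant chain in antigen-presenting cells. It read 618, 727 and 541 units in the knockout testes and 1173, 624 and 746 units in the wild-type testes. Wild-type replicate 1 stood 1.57-fold above the next array, and the other 5 arrays overlapped. Laptm5, a lysosomal membrane protein of leukocytes, read 80.5, 82.9 and 68.1 units in knockout and 141, 80.9 and 75.4 units in wild type. Wild-type replicate 1 again stood apart, 1.71-fold above the next array.

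The difference of Ctss was -0.39 ± 0.24 and that of Laptm5 -0.31 ± 0.24 log2 units (SE), and neither passed (adjusted p = 0.697 and 0.728, limma). Cd68, a lysosomal glycoprotein used to stain macrophages, read 509, 439.8 and 365 units in knockout and 438, 427 and 489 units in wild type. It did not show the high wild-type replicate 1, and its difference was -0.05 ± 0.13 log2 units, and -0.13 ± 0.09 on its other probe (SE). The other Laptm5 probe gave -0.46 ± 0.32 (SE). Without both arrays the median of the lysosomal group was 0.02.

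Of the scavenger receptors, Mrc1 (the mannose receptor CD206) read 1471, 1389 and 1348 units in the knockout testes and 1327, 1291 and 1483 units in the wild-type testes. Its difference of 0.04 ± 0.08 log2 units had a 95% interval of -0.14 to 0.22 (SE, limma), among the narrowest of the members. Msr1, the class A scavenger receptor, read 96.9, 106.9 and 94.5 units in knockout and 115, 118 and 94.7 units in wild type, a difference of -0.13 ± 0.10 (SE). Neither gene was highest in wild-type replicate 1.

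Cd163, the haemoglobin scavenger receptor, was not tested. It read 60.1, 2.18 and 26.7 units in knockout and 8.69, 2.18 and 2.33 units in wild type. The probe was well above background on 2 knockout arrays and on 0 wild-type arrays, and knockout replicate 2 was as low as the wild-type arrays.

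Fcer1g encodes the signalling chain shared by activating Fc receptors. It read 750.4, 719 and 688 units in the knockout testes and 1324, 725 and 743 units in the wild-type testes. Wild-type replicate 1 was 1.76-fold above the next array, and the other 5 arrays lay within a narrow band. The difference was -0.31 ± 0.23 log2 units (SE, adjusted p = 0.718, limma), and without both arrays it was 0.001.

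Neither Fcgr1 nor Fcgr3, which pair with that chain, had a high wild-type replicate 1. Fcgr1, the high-affinity IgG receptor CD64, read 28.6, 20.5 and 13.4 units in knockout and 21.8, 29.1 and 16.4 units in wild type, with full overlap. Fcgr3 read 424, 369.7 and 458 units in knockout and 448, 417 and 432 units in wild type. Their differences were -0.14 ± 0.32 and -0.06 ± 0.09 log2 units (SE).

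Cd14, the co-receptor for bacterial lipopolysaccharide, read 129.7, 136 and 153 units in knockout and 149, 131 and 116 units in wild type. Its difference was 0.08 ± 0.11 log2 units (SE), and knockout replicate 3 was the highest array here. Itgam, the integrin chain CD11b, read 26304, 23849 and 22184 units in knockout and 22105, 21545 and 24063 units in wild type on the probe used. The difference was 0.09 ± 0.08 log2 units on that probe, -0.13 ± 0.16 and 0.03 ± 0.17 on the other tested probes (SE), so the sign depends on the probe. Those other probes were far dimmer, at 42.0 to 66.7 units and 23.8 to 37.0 units over the arrays. Whether the signal of the bright probe comes from leukocytes was not tested.

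Cx3cr1, the fractalkine receptor of monocytes and resident macrophages, read 479.7, 474 and 396 units in the knockout testes and 597, 506 and 479 units in the wild-type testes. The highest knockout and the lowest wild-type array were nearly equal, and the difference was -0.23 ± 0.12 log2 units (SE, adjusted p = 0.674, limma). The other tested Cx3cr1 probe differed by -0.01 ± 0.33 (SE), and averaging the probes gave -0.12. Ccr2, which marks recruited monocytes, read 7.59, 16.8 and 7.38 units in knockout and 10.2, 6.10 and 2.25 units in wild type. It was well above background on 1 knockout array and on 0 wild-type arrays, and was not tested.

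The leukocyte surface group held the member of widest spread within genotype, Cd52. Cd52, a small glycosylphosphatidylinositol-anchored protein of lymphocytes and macrophages, read 397, 474 and 383 units in the knockout testes and 1577, 358 and 448 units in the wild-type testes. Wild-type replicate 1 was 3.33-fold above the next array, and the other 5 overlapped. The difference was -0.60 ± 0.54 log2 units (SE, adjusted p = 0.756, limma) with a 95% interval of -1.90 to 0.70, and without wild-type replicate 1 it was 0.06.

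Emr1 read 287, 257 and 218 units in the knockout testes and 599, 282 and 293 units in the wild-type testes. Knockout replicate 1 lay between the 2 lower wild-type arrays, and wild-type replicate 1 stood 2.05-fold above the next array. The difference was -0.54 ± 0.30 log2 units (SE, adjusted p = 0.685, limma), and on the other Emr1 probe -0.46 ± 0.29. Without both arrays it was -0.08. Cd53, a tetraspanin of leukocytes, read 16.5, 20.4 and 14.6 units in knockout and 30.2, 20.4 and 18.2 units in wild type, with a ratio of 1.48 between wild-type replicate 1 and the next array.

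Ptprc, the pan-leukocyte phosphatase CD45, read 97.1, 122 and 95.6 units in knockout and 145, 123 and 112 units in wild type. Knockout replicate 3 was its lowest array and wild-type replicate 1 its highest, and the difference was -0.27 ± 0.14 log2 units (SE, adjusted p = 0.668, limma). Aif1, the actin-binding protein IBA1, read between 88733 and 105451 units in knockout and between 98851 and 106049 units in wild type. Its difference was -0.11 ± 0.08 log2 units (SE), and wild-type replicate 1 was the lowest of the wild-type arrays. Whether this bright Aif1 signal comes from leukocytes or from other testis cells was not tested. The median of the 5 surface and cytoskeletal genes was -0.39 on all arrays and -0.08 without both arrays.

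**Figure D3:**
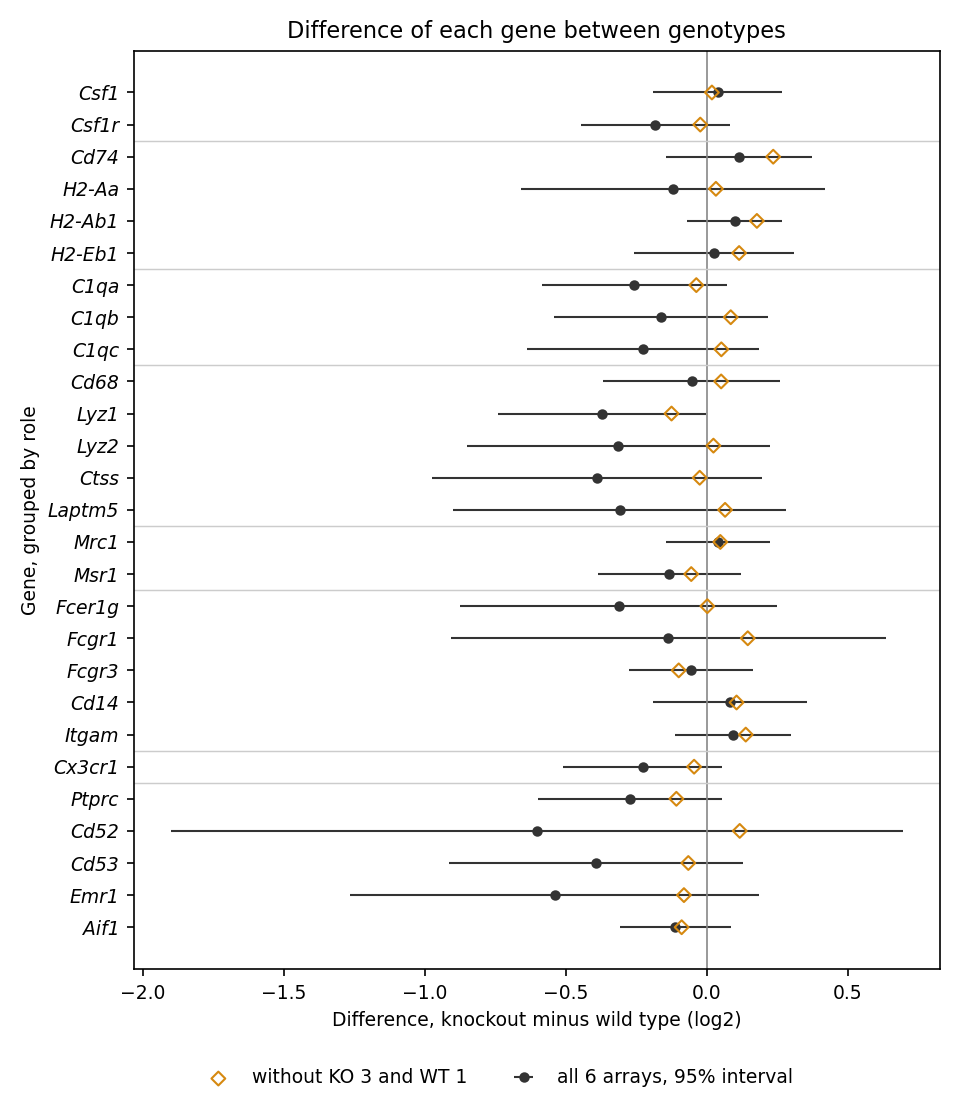
Difference of each gene, knockout minus wild type, in log2 units, grouped by role from top to bottom. Filled points with bars are the estimates over all 6 arrays with their 95% intervals from limma, and open diamonds are the estimates without KO 3 and WT 1. The interval of Lyz1 ends just below 0, the others cross 0, and most diamonds lie nearer to 0 than their points in the complement, lysosomal and surface groups.

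The 5 members Cd52, Emr1, Fcer1g, Laptm5 and Ctss stood at least 1.5-fold above every other array in wild-type replicate 1, which 0.508% of all genes did. The nearest member below that mark was Cd53. The median residual SD of the members, the spread within genotype, was 0.193 log2 units, against 0.112 over all genes. Of the 27 members, 25 had a larger spread than the median of the 1000 genes nearest to them in brightness, and 10 were among the top 10% of those genes.

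At this spread small shifts could go uncalled. In simulated data at the spread of all genes, limma called 62 of 200 genes changed by 0.5 log2 units and 157 of 200 changed by 1, and most of these members vary more than that. The simulated noise was normal and independent between genes, with 200 genes changed, while 19 genes passed here. These rates therefore need not hold for the real data. With 3 mice per genotype the exact permutation p of 1 gene is never under 0.1.

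A wider list of 40 tested macrophage and monocyte genes outside the members gave 0 adjusted calls. At an unadjusted p under 0.05 there were 2, both lower in knockout, against 3.73% of all genes lower at that p (limma). Of the 40, 31 were lower in knockout, with a median of -0.11 log2 units. Wild-type replicate 1 was highest for 21 and knockout replicate 3 lowest for 20. Without wild-type replicate 1 alone, 20 were lower and the median was 0.01, and without knockout replicate 3 alone 23 of 42 were lower, with a median of -0.03. The genes of lowest p were Apoe, the lipid carrier, at -0.34 ± 0.10, Cybb, a subunit of the phagocyte oxidase, at -0.40 ± 0.16, Trem2 at -0.31 ± 0.15 and Lyve1 at 0.57 ± 0.30 log2 units (SE, adjusted p from 0.662 to 0.680, limma). Cybb and Lyve1 were dim. Cybb read 9.71, 11.7 and 7.88 units in knockout and 13.9, 13.1 and 11.3 units in wild type. Lyve1 read 25.5, 14.1 and 23.9 units in knockout and 19.8, 12.0 and 11.1 units in wild type.

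Apoe read 8185, 9166 and 7159 units in knockout and 10293, 9801 and 10904 units in wild type, without overlap. Knockout replicate 3 was the lowest array here too, but wild-type replicate 1 was not the highest. The wider lysosomal list had 18 of 24 genes lower and a median of -0.06. Of these, 3 had an unadjusted p under 0.05, against 3.73% of all genes lower at that p (limma). In 6 of the 24 genes every knockout value lay below every wild-type value, a separation seen in 5.98% of all genes. Without knockout replicate 3 alone 18 of 24 were lower, and without wild-type replicate 1 alone 17. Without both arrays 15 of 24 were lower, with a median of -0.04. Genes of low p in it were Ctsh at -0.54 ± 0.20, Psap at -0.16 ± 0.06 and Ctsb at -0.27 ± 0.12 log2 units (SE), each with an adjusted p of 0.662 (limma).

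The wider class II list, which holds the peptide editor H2-DM, regulators and costimulators, had 7 of 10 genes higher in knockout and a median of 0.05. Without wild-type replicate 1 that turned to 6 of 11 lower and a median of -0.07. Without knockout replicate 3 the list had 8 of 11 higher and a median of 0.04. H2-DMb1 read 2327, 2200.3 and 2292 units in knockout and 2208, 1939 and 1876 units in wild type, a difference of 0.18 ± 0.08 (SE). Cd80 differed by 0.16 ± 0.07 and Cd86, the related costimulator, by -0.39 ± 0.16 log2 units (SE). In this list 0 genes passed and 1 had an unadjusted p under 0.05, against 7.47% of all genes (limma).

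Among CSF1 relatives and chemokines, 13 of 18 genes were lower, with a median of -0.14. Without knockout replicate 3 the list had 9 lower and 9 higher and a median of 0.004. Without wild-type replicate 1 it had 11 of 18 lower and a median of -0.06. Ccl4 differed by -0.55 ± 0.18, Cxcl12 by -0.37 ± 0.19 and Ccl8 by 0.45 ± 0.19 log2 units (SE). In this list 0 genes passed and 1 had an unadjusted p under 0.05, against 7.47% of all genes (limma). On knockout replicate 3 this list had a median deviation of -0.37 log2 units. The list of classical and alternative complement genes outside C1q had 10 of 15 lower and a median of -0.06. Without wild-type replicate 1 it had 6 lower and a median of 0.03, and without knockout replicate 3 it had 10 lower and a median of -0.05.

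Markers of other leukocytes did not share the wild-type replicate 1 profile as lists. T and NK cell markers had 9 of 16 genes lower in knockout, with summed signals of 7995 to 9256 units in knockout and 9019 to 9220.1 units in wild type, and replicate 1 was highest for 2 genes. B cell markers had 5 of 9 lower, turning to 3 of 9 without wild-type replicate 1 and 4 of 9 without knockout replicate 3, with sums of 2017 to 2213 units in knockout and 2058 to 2479 units in wild type. These sums, like the Leydig sums below, are weighted towards the brightest genes of a list. Named here for their brightness, those were Cd3d, Cd4 and Nkg7 for T and NK cells, and Blnk and Cd22 for B cells. The sums are therefore not measures of cell number. Of the neutrophil markers 7 of 14 were tested, and S100a8, Ngp, Ltf and Cxcr2 were not well above background on any array. The T cell genes Cd3g and Cd8a, the B cell gene Blk, and the mast cell and eosinophil genes Fcer1a and Epx were likewise not well above background on any array.

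Leydig cell markers were also low in knockout replicate 3. Of 14 tested, 12 were lower in knockout and 0 passed. At an unadjusted p under 0.05 there were 3, all lower in knockout, against 3.73% of all genes lower at that p (limma). In all, 10 had their lowest value in that array, and their median deviation there was -0.35 log2 units. Summed Leydig signals ranged from 77813 to 125070 units in knockout and from 119095 to 146955 units in wild type, with Ptgds the most variable part of the sum. Without Ptgds, left out after its values were seen, the sums were 68077 to 76352 units in knockout and 79077 to 81088 units in wild type. Hsd17b3, which encodes the last enzyme of testosterone synthesis, read 940.1, 1450.1 and 683 units in knockout and 1604, 1548 and 1757 units in wild type. Without both arrays 11 of the 14 Leydig markers were still lower, with a median of -0.19. Their part in the macrophage values was not tested.

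**Figure D4:**
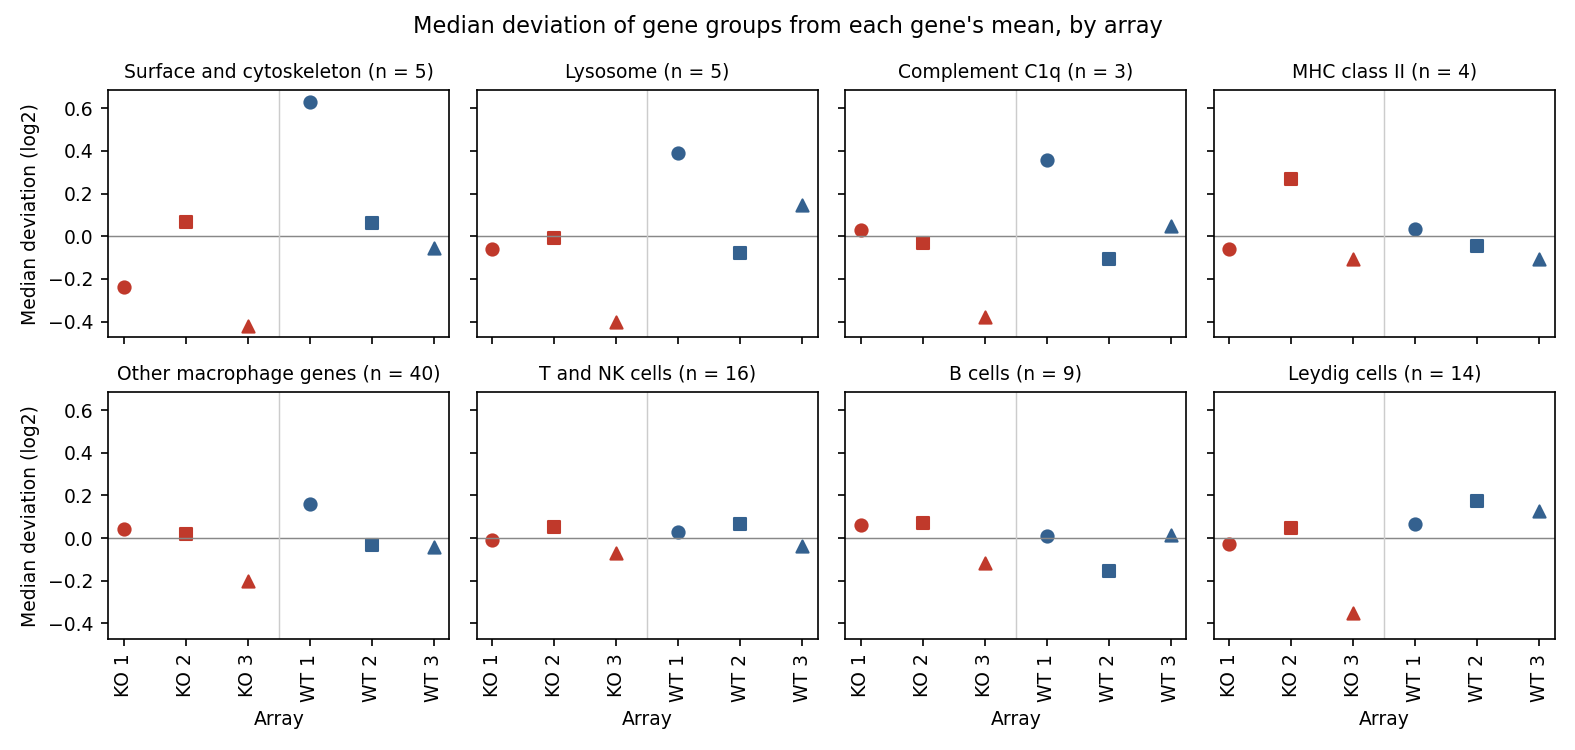
Median deviation of gene groups from each gene's own mean, in log2 units, on the 3 knockout (KO, red, left) and 3 wild-type (WT, blue, right) arrays, with the number of tested genes. The surface, lysosomal and C1q groups and the other macrophage genes are highest in WT 1 and lowest in KO 3. The class II group is highest in KO 2, the T cell list stays nearest to 0, the B cell list is lowest in WT 2, and the Leydig list is lowest in KO 3 without a high WT 1.

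The short motif GAGGAA, the core that PU.1-type factors bind, was searched in the same promoter windows on both strands. It was found in 12 of the 21 members with a promoter and in 31.3% of the 27025 genes of the table. The 12 were Aif1, C1qb, C1qc, Cd53, Cd68, Ctss, Fcgr1, Fcgr3, Itgam, Laptm5, Mrc1 and Ptprc. They include genes that were high in wild-type replicate 1 (Ctss, Laptm5, Cd53) and genes that were not (Cd68, Mrc1, Itgam). The matches are a description of letters and not of binding.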

How the data were processed

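Whole testes of 3 Gipr knockout and 3 wild-type mice were read on 1-colour Agilent arrays of design 028005. Per the file headers, the deposited scanner files were made with Feature Extraction 10.7.3.1, and each spot's processed intensity is background-corrected and linear, with probe positions on build mm9. The deposited value table holds the same intensity multiplied by 1 factor per array to a median of 200, with no centring across genes and no ratio, and served as an alternative. Control and outlier spots were left out, spots of a probe averaged, log2 taken of the deposited intensity, and the 75th percentile of each array subtracted. Probes well above background on all 3 arrays of a genotype were kept, and each gene, by the name in the files, was read by its brightest probe.

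Knockout and wild type were compared with limma 3.58.1 (R 4.3.3; lmFit, eBayes, no covariates, two-sided, Benjamini-Hochberg over 26977 genes, adjusted p under 0.05). The self-test on simulated data ran on the same genes. Replicates are separate mice per the series design. The number of arrays limits the precision. The members and lists were chosen with earlier results of these data known. All members are named, up to 4 genes of lowest p per list, and Gipr; some list genes are not reported here. Genes named outside this rule are marked as such. Marker lists also covered red blood cells, Sertoli cells, endothelium, myoid cells, epididymis and fat. Alternatives changed background correction, normalization, filter, probe rule, variance model, array weights, replicate block and samples. Exon boundaries on mm9 were not used here. Promoters came from RefSeq, build GRCm38.p6.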

Additional observations from a re-analysis of the deposited data

How the results depend on the processing

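Under all 18 alternatives with a fit, 0 members passed an adjusted p of 0.05 (limma), and the lowest adjusted p of any member was 0.207. The count of genes past that threshold over the whole array, 19, was 29 with normexp background correction, 7 without a filter on dim probes, 34 with a trended and robust variance, 30 with array weights and 5 with the replicate number as a block. Members at an unadjusted p under 0.05 (limma), 1 as reported, numbered 0 with quantile normalization (7.78% of all genes) and 0 without the filter (5.51%). They numbered 3 with array weights (20%) and 3 with the replicate block (7.55%). Members whose groups do not overlap, 1 as reported, numbered 2 with normexp, 3 with quantile normalization, 3 with scaling to the median, 4 with the deposited value table and 2 when a gene's probes were averaged, while 12.7% to 13.6% of all genes did not overlap in these fits. Deviations of same-numbered arrays correlated at 0.06, -0.02 and -0.003, which cannot show whether those mice were paired. Same-numbered arrays shared a slide column, and the labels name no pairing. The replicate block is given for completeness.

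Leaving out 1 array at a time moved the genes past the threshold between 5 (without knockout replicate 1 or 2) and 24 (without wild-type replicate 1). Members at an unadjusted p under 0.05 ranged from 0 to 5, and non-overlapping members from 2 to 8, both highest without knockout replicate 2, where 14.7% of all genes had such a p and 35% did not overlap. The 5 were Lyz1, Ptprc, Aif1, H2-Aa and Cd163. Cd163 entered that fit only because its low knockout array was left out, so its call is no result. In the other fits with 1 array left out, 4.78% to 9.73% of all genes had such a p and 19.1% to 29.2% did not overlap. The members' median ranged from -0.25 to -0.08, that of the scavenger receptors from -0.067 to 0.046 and that of the Fc receptor and sensing genes from -0.069 to 0.061. Knockout 3 and wild-type 1 were also left out together, a choice made after seeing the data. In that fit 0 members had an unadjusted p under 0.05 (limma), against 5.39% of all genes. Groups did not overlap for 3 members, against 33.6% of all genes, and 17 genes were past the threshold. The median over all members was then 0.023, with 0.051 for C1q, 0.023 for lysosome, 0.105 for Fc receptors and sensing, -0.046 for Cx3cr1 and -0.082 for surface genes. Without the filter on dim probes the scavenger median was 0.039, with Cd163 added, and the chemokine receptor median 0.343, with Ccr2 added. With another Itgam probe, also chosen after seeing the data, the Fc receptor and sensing median was -0.134. Without Aif1 and Itgam, the members of brightest signal and likewise left out after seeing the data, the members' median was -0.18.

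Several members changed sign in some fit. With a gene's probes averaged Csf1 was -0.098 and Itgam -0.0027, and with the other probe Itgam was -0.134. With array weights H2-Eb1 was -0.042 and Cd68 0.102. Leaving out 1 array at a time, H2-Aa ranged from -0.372 (without knockout replicate 2) to 0.011, H2-Eb1 from -0.105 (without knockout replicate 2) to 0.095, and Fcgr3 from -0.126 to 0.029 (without knockout replicate 2). Cd68 ranged from -0.169 to 0.070 and Fcgr1 from -0.401 to 0.146, both highest without knockout replicate 3. Cd52 ranged from -1.01 to 0.056 (without wild-type replicate 1), Csf1 from -0.035 to 0.114, Mrc1 from -0.0010 to 0.099 and Cd14 from -0.0069 to 0.174. Without knockout 3 and wild-type 1 together H2-Aa was 0.032, C1qb 0.084, C1qc 0.051, Cd68 0.050, Lyz2 0.023, Laptm5 0.064, Fcer1g 0.0013, Fcgr1 0.145 and Cd52 0.116. Of the 27 tested members, 12 kept their sign under every alternative run. The causes of these shifts were not tested.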

Other observations

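Wild-type replicate 1 stood at least 1.5-fold above every other array in 137 genes, 5 of them members. The 137 are not all leukocyte genes: the highest ratios to the next array were 12.5 for Ppcdc, 7.61 for Neurog2 and 5.85 for Lpar4. Those genes and the leukocyte genes named next were chosen after their values were seen. Spn, the leukocyte sialoprotein CD43, read 28.4, 25.8 and 23.95 units in the knockout testes and 132, 28.3 and 23.7 units in the wild-type testes. Ebi3, a cytokine subunit, read 175, 174 and 153 units in knockout and 809.9, 154 and 152 units in wild type. Coro1a, the leukocyte actin regulator coronin 1A, read 307, 277 and 237 units in knockout and 677, 282 and 262 units in wild type. Irf5, a transcription factor of inflammatory macrophages, read 46.8, 38.8 and 33.2 units in knockout and 98.4, 41.4 and 38.4 units in wild type. In each of them the other 5 arrays overlapped between genotypes.

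From the wider macrophage list, Marco, a scavenger receptor, read 107.2, 74.4 and 75.9 units in knockout and 222, 72.0 and 73.0 units in wild type. Fcgr4, Tlr2 and Ly86 stood 2.11-fold, 1.56-fold and 1.65-fold above the next array in the same animal. Cd79b of the B cell list stood 2.97-fold above the next array, with 22.7, 21.2 and 14.4 units in knockout and 67.4, 17.8 and 14.9 units in wild type. These genes were chosen after their values were seen.

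Fat and red blood cell markers differed widely between animals of one genotype. The adipose list had a median deviation of 1.93 log2 units on the first knockout array and 1.38 on the second wild-type array, and was below 0 on the other 4 arrays. Red blood cell markers deviated by 0.73, -0.45 and 0.55 log2 units on the knockout arrays and by -0.68, -0.08 and -0.17 on the wild-type arrays. Epididymal markers had a median difference of 0.01, endothelial markers of -0.09, Sertoli cell markers of 0.10 and myoid markers of 0.07 log2 units, with 0 adjusted calls in each list (limma). At an unadjusted p under 0.05 there were 0 of 6 epididymal genes and 3 of 15 endothelial genes lower in knockout (limma). Higher in knockout at that p were 3 of 15 Sertoli cell genes and 1 of 9 myoid genes. Over all genes 3.73% were lower and 3.74% higher at that p. Mast cell and eosinophil markers, of which 3 of 11 were tested, had a median of 0.11 and 0 adjusted calls or unadjusted p under 0.05 (limma). Of the 7 tested neutrophil markers 0 passed and 3 had an unadjusted p under 0.05, against 7.47% of all genes (limma). They were S100a9 at 1.72 ± 0.57, Lcn2 at -1.14 ± 0.44 and Prtn3 at -0.28 ± 0.11 log2 units (SE). S100a9 was dim, with 11.67, 11.43 and 14.97 units in knockout and 2.82, 9.90 and 2.01 units in wild type. Its wild-type values were about as low as those of Sfpi1, which was not well above background on any array. At such values S100a9 could enter the test only through its knockout arrays, where it is high, so its call is no result. The size of the S100a9 difference is also uncertain. Prtn3 was dim too, with 13.8, 16.1 and 13.2 units in knockout and 15.9, 16.8 and 19.5 units in wild type. Lcn2 read 14457.5, 25686 and 10401 units in knockout and 31037, 22706 and 58587 units in wild type. Its values varied widely within each genotype, and its groups overlapped. A change in neutrophils is not read from these genes.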
